A study of Mus musculus with 29 samples.

Results

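Transcripts of 33 genes of cholesterol and fatty acid synthesis were followed in the NRAS-mutant mouse melanoma line NMM through sequences of 2 cytokine stimuli. The 33 genes were taken by symbol from the 28229 genes of the count table, and all 33 passed the filter on low counts that left 14935 genes for testing. By role they were 6 regulators, 8 genes of the mevalonate and isoprenoid steps, 11 genes of the steps from squalene to cholesterol, and 8 genes of fatty acid synthesis. The first stimulus, kept on for 2, 6, 12 or 24 h, was plain medium, IFNγ (interferon gamma) at 100 ng/ml, or TGFβ (transforming growth factor beta) at 10 ng/ml. After a wash a second stimulus of medium, IFNγ, TGFβ or a mix of both followed for 24 h. The 29 mRNA libraries formed 7 sequences of 4, with 1 library per duration of the first stimulus: 3 began with medium (followed by medium, by IFNγ or by TGFβ), 2 were a cytokine followed by medium, and 2 held both cytokines in either order. The last library had 24 h of medium followed by the mix. Culture medium was IMDM, and its 10% fetal calf serum was shared by every group, the medium controls included. The labels name 1 cell line and no separate cultures per duration, so the p-values measure the spread between these libraries, which may be technical in part. In bulk libraries fewer cells of a kind and less RNA per cell cannot be told apart.

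Cells make cholesterol from acetyl-CoA through mevalonate, the isoprenoids and squalene, and make fatty acids from the same acetyl-CoA through malonyl-CoA. Both routes are controlled by the SREBP transcription factors. These are carried from the endoplasmic reticulum to the Golgi by SCAP and cleaved there when sterols are low, and they are held back by the INSIG proteins when sterols are plentiful. SREBP-2 acts mainly on cholesterol genes and SREBP-1 mainly on fatty acid genes, with the factors NF-Y and Sp1 bound nearby.

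Promoters are shown first because the genes are known as targets of these factors. RefSeq promoter sequences on GRCm38.p6, each running from 250 bases before to 50 bases after a start site, were matched by symbol for 26 of the 33 genes. The 7 without a match were Scd1, Scd2, Fads1, Stard4, Fdps, Sqle and Fdft1. A sterol regulatory element written TCACNCCAC, searched on both strands, occurred in 1 of the 26 genes (3.85%) and in 1.44% of all 27025 genes with a promoter in the table. That gene was Hmgcs1, which encodes the enzyme that makes HMG-CoA. Its shorter form TCACNCCA, chosen after the first search and contained in it, occurred in 3 of 26 genes (11.5%) and in 4.97% of all genes. The CCAAT sequence bound by NF-Y occurred in 21 of 26 genes (80.8%), against 41.1% of all genes. GGGCGG, the GC box bound by Sp1, also occurred in 21 of 26, against 38.2% of all genes. The E-box CACGTG was in 5 of 26 genes (19.2%), against 8.09%. The shares of all genes cover the whole promoter table, not only the genes expressed in these cells. These matches describe letters in a window and were not tested as sites.

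The windows below lie upstream of the start site and run 5′ to 3′ on the gene's strand, from 10 bases before the first to 10 bases after the last marked motif. Capitals mark TCACNCCA with its final C where present, and CCAAT, which reads ATTGG where it lies on the opposite strand. They were chosen to show the strict element beside CCAAT (Hmgcs1) and its shorter form at the gene for SREBP-2 itself (Srebf2). Mvd and Insig1 are genes whose transcripts moved with the stimuli and whose promoters held CCAAT but neither form of the sterol element. GC boxes and E-boxes are not marked, though both of these promoters held a GC box and that of Insig1 an E-box.
Hmgcs1, chr13:119690104-119690320, + strand: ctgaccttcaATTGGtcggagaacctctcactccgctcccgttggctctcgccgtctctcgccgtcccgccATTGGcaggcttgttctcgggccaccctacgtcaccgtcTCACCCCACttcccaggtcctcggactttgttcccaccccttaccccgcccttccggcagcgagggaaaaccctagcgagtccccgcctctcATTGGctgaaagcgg
Srebf2, chr15:82147097-82147148, + strand: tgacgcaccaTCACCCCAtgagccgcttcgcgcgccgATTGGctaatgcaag
Mvd, chr8:122443435-122443492, - strand: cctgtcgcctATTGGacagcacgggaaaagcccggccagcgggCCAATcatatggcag
Insig1, chr5:28071186-28071210, + strand: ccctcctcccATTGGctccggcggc
In Hmgcs1 the sterol element begins 137 bases before the start site with 3 CCAAT sequences around it, all on the opposite strand. In Srebf2 the shorter form begins 162 bases before the start site and 1 CCAAT sequence follows. Mvd has a CCAAT sequence on each strand.

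Library totals ran from 17179530 to 23668015 counts. The mitochondrial share of counts moved with the groups: it was 0.841 to 0.868% in medium without the 6 h library, which had 1.24%, and 0.676 to 0.814% after medium then IFNγ. It was 0.624 to 0.936% in TGFβ then IFNγ and 0.977 to 1.25% in IFNγ then TGFβ, without overlap. One control stood apart: the library of 6 h medium then medium differed from the other 3 of its sequence by an SD of 0.37 (log2 CPM) over the 33 genes, where the other 27 libraries with companions had SDs of 0.092 to 0.271. Of markers of the melanocyte lineage, Sox10 was at 0 in 19 of 29 libraries with at most 0.135 CPM, Pmel was at most 0.444 CPM, and Mitf was at 8.4 to 20.2 CPM. So the labelled lineage was carried by Mitf and Gpnmb (26.4 to 276 CPM) and barely by Sox10 or Pmel. The sum of the melanocyte markers, mostly Gpnmb, covered the 4 of 8 listed genes that the count table holds. It was 164 to 290 CPM in medium, 61.1 to 96.2 CPM after second TGFβ and 107 to 178 CPM after second IFNγ. By order the sum was 37.7 to 86.2 CPM in TGFβ then IFNγ and 89.8 to 155 CPM in IFNγ then TGFβ. Among the 2 of these genes tested, second IFNγ gave 1 called higher and 0 lower, and second TGFβ 0 higher and 2 lower. Leukocyte markers summed to at most 0.231 CPM, keratinocyte markers to at most 0.729 CPM and adipocyte markers to at most 0.423 CPM. Summed fibroblast markers, mostly Dcn, were at 95.6 to 484 CPM in medium, at 36.9 to 65 CPM after second IFNγ, at 38 to 87.2 CPM in TGFβ then IFNγ and at 120 to 177 CPM in IFNγ then TGFβ. Summed endothelial markers, mostly Cdh5, were at 6.99 to 12.3 CPM in medium and at 16.8 to 23.5 CPM after second TGFβ. The part of these shifts in the results below was not tested.

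Levels between genes are compared per kilobase of exon, in CPM per kb over the 4 libraries that had medium as both stimuli. Scd2 (109 ± 25.6, SD, n = 4) and Scd1 (56.8 ± 24.5), the desaturases that make oleate, were highest. Fads2 followed at 39.2 ± 2.49, Acly at 35.4 ± 3.66 and Hmgcs1 at 34 ± 1.44, and each of these overlapped its neighbour in this order within 1 SD. The lowest were Acat2, the cytosolic thiolase at the entry to the pathway, at 2.04 ± 0.347, and Tm7sf2, a sterol reductase, at 1.02 ± 0.248. Scd2 (chr19:44293674-44306864, + strand) and Scd1 (chr19:44394455-44407879, - strand) are neighbouring copies on GRCm38, and how the counting treated reads that fit both is not given in the sources used here. Exons of 12 of the 33 genes overlap another gene's exons in GENCODE M21, so their counts carry that uncertainty. The overlap was on the opposite strand for 9 of them. It was on the same strand for 4 (Fdps, Scd2, Srebf1 and Tm7sf2), with Srebf1 in both counts.

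**Figure D1:**
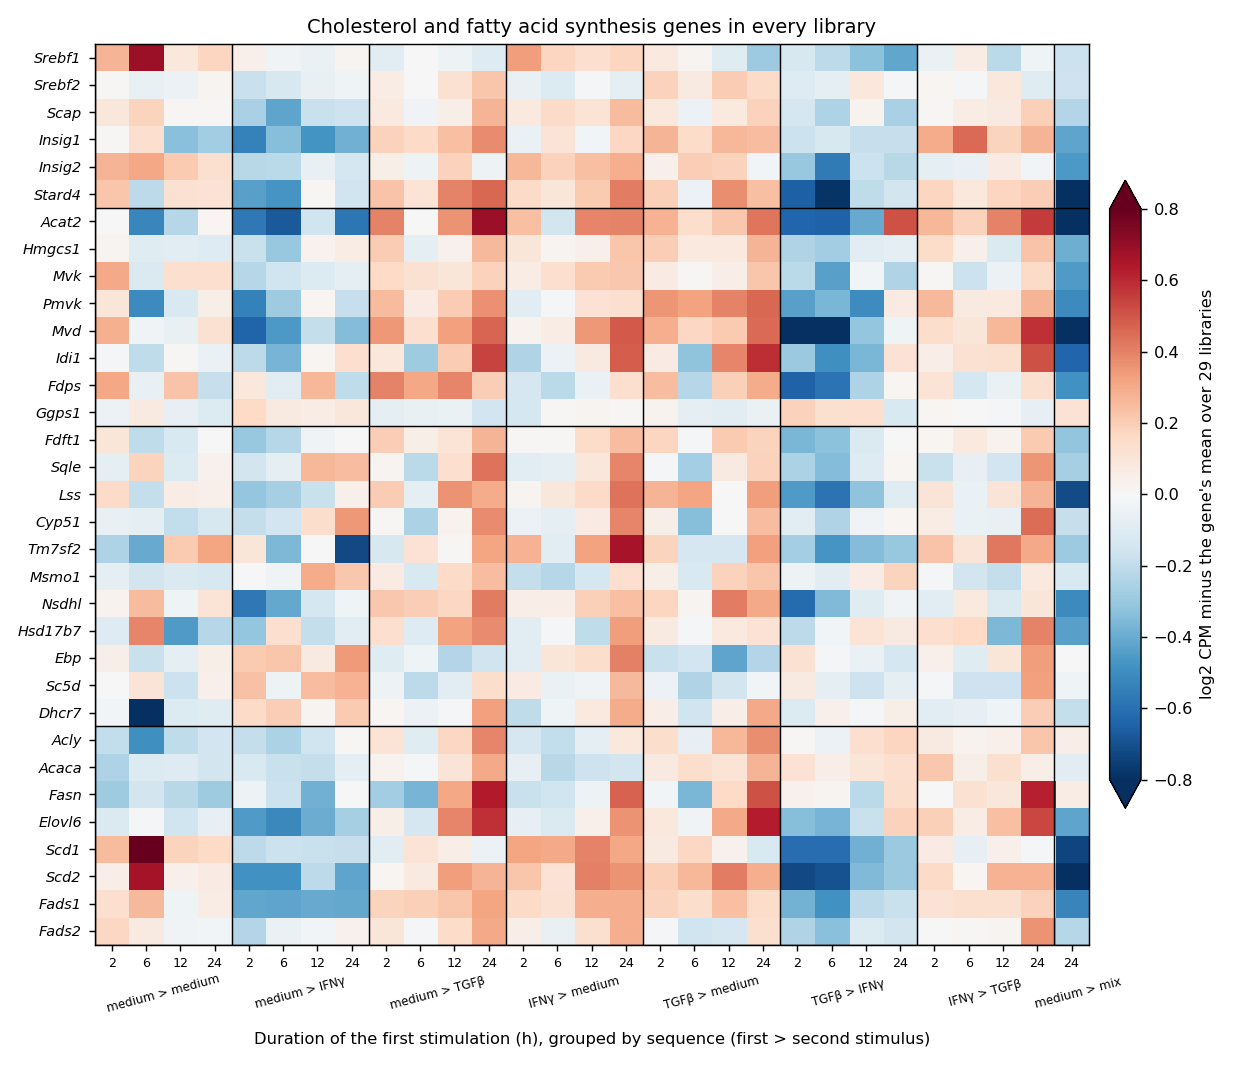
Level of each of the 33 genes (rows, with lines between the 4 roles) in each of the 29 libraries (columns, by sequence and duration of the first stimulus in h). Colour is log2 CPM minus the gene's mean over all libraries, cut at -0.8 and 0.8. The columns of TGFβ then IFNγ at 2 and 6 h and the mix column are the bluest, and the reddest are the 24 h columns of the sequences that end in TGFβ and of those in which a cytokine was followed by medium.

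The first comparison asked what 24 h of IFNγ did to these genes after a first period in medium. Of the 33 genes 12 fell and 5 rose, where 21.2% of all tested genes fell and 22.7% rose (43.8% in all). The genes that fell were 5 of 6 regulators (Srebf1, Scap, Insig1, Insig2 and Stard4), 4 of 8 fatty acid genes (Scd1, Scd2, Fads1 and Elovl6), and only 3 of 19 sterol enzymes (Mvk, Mvd and Nsdhl). The genes that rose were Dhcr7, Ebp, Msmo1 and Sc5d of the late sterol steps, and Ggps1 of the isoprenoid branch. The rises were the less stable side: 1 to 3 genes were higher and 10 to 12 lower under DESeq2, RLE scaling, no filter, no replicate block or only the groups compared, and 2 to 5 higher and 10 to 14 lower with libraries or durations left out. The median log2 fold change was -0.12 over the 33 genes and -0.01 over all tested genes.

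Scd1 was at 227, 459, 215 and 212 CPM after medium at 2, 6, 12 and 24 h, and at 164, 169, 168 and 168 CPM after second IFNγ. All 4 IFNγ libraries lay under all 4 medium libraries. The log2 fold change was -0.71 (SE 0.15, adjusted p = 0.000488, edgeR). It rested in part on the 6 h medium library, without which it was -0.39 (adjusted p = 0.000162). Scd2 was at 525, 804, 520 and 529 CPM in medium and at 361, 362, 438 and 377 CPM after IFNγ, again with no overlap. Its log2 fold change was -0.64 (SE 0.11, adjusted p = 7e-05), and -0.41 without the 6 h library. Fads1, the delta-5 desaturase of polyunsaturated fatty acids, was at 122, 133, 109 and 116 CPM in medium and at 83.5, 83.1, 84 and 83.7 CPM after IFNγ. Its 4 IFNγ libraries were nearly level and all below medium, and its log2 fold change was -0.52 (SE 0.06, adjusted p = 6.21e-07). The chain-opening enzymes were called in neither direction: Acly had a log2 fold change of 0.11, Acaca of 0.01 and Fasn of 0.08 (SE 0.14, adjusted p = 0.666).

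Among the sterol enzymes, Mvd, which decarboxylates mevalonate pyrophosphate, was at 17.7, 14.3, 14 and 15.9 CPM in medium and at 9.32, 10.6, 12.8 and 11.5 CPM after IFNγ. The groups did not overlap, and the log2 fold change was -0.50 (SE 0.12, adjusted p = 0.00212). Nsdhl, a C4 demethylation enzyme, was at 25, 29.2, 23.9 and 26.4 CPM in medium and at 16.4, 18.4, 22.3 and 23.9 CPM after IFNγ. Its ranges met at 23.9 CPM, with the lower values after the short first periods, and its log2 fold change was -0.38 (SE 0.10, adjusted p = 0.00248). Dhcr7, the last reductase before cholesterol, went the other way, from 25.7, 14.8, 24.2 and 24.5 CPM in medium to 29, 29.9, 26.6 and 30.2 CPM. All IFNγ libraries lay above all medium libraries, and the log2 fold change was 0.38 (SE 0.11, adjusted p = 0.00554), or 0.24 without the 6 h medium library, in which Dhcr7 was lowest. Msmo1, which oxidises the C4 methyl groups, rose as well (0.24, SE 0.06, adjusted p = 0.00362). Ebp, the sterol isomerase, stood at 0.25 (adjusted p = 0.0263), and lost its call without the 6 h medium library (0.21, adjusted p = 0.0886). Sc5d, the desaturase before Dhcr7, had 0.19 (adjusted p = 0.0489) and Ggps1, which makes geranylgeranyl pyrophosphate, 0.13 (adjusted p = 0.0493). Sc5d and Ggps1 each lost the call in 6 of the 8 fits without 1 library, at adjusted p up to 0.209 and 0.159, and Ebp in 3 of 8.

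Of the regulators, Insig2 was at 22.6, 23.2, 21.6 and 20.4 CPM in medium and at 16, 16.1, 17.9 and 16.9 CPM after IFNγ, without overlap (log2 fold change -0.39, SE 0.07, adjusted p = 0.000112). Insig1, which is itself an SREBP target, was at 62.7, 68.5, 49.5 and 51.4 CPM in medium and at 42.9, 49.3, 44.8 and 47.8 CPM after IFNγ. The highest IFNγ library fell just under the lowest medium library, and the log2 fold change was -0.33 (SE 0.08, adjusted p = 0.00163). Scap had -0.33 (adjusted p = 0.000543), Stard4, a cholesterol carrier, -0.33 (adjusted p = 0.0028) and Srebf1 -0.31 (adjusted p = 0.00267), which was -0.20 (adjusted p = 0.0178) without the 6 h medium library. Srebf2 was not called, at 142, 135, 136 and 143 CPM in medium and 125, 129, 135 and 138 CPM after IFNγ (log2 fold change -0.08, adjusted p = 0.182). Without the 6 h medium library 5 genes were again higher and 12 lower, 16 of these 17 among the 17 called with it.

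**Figure D2:**
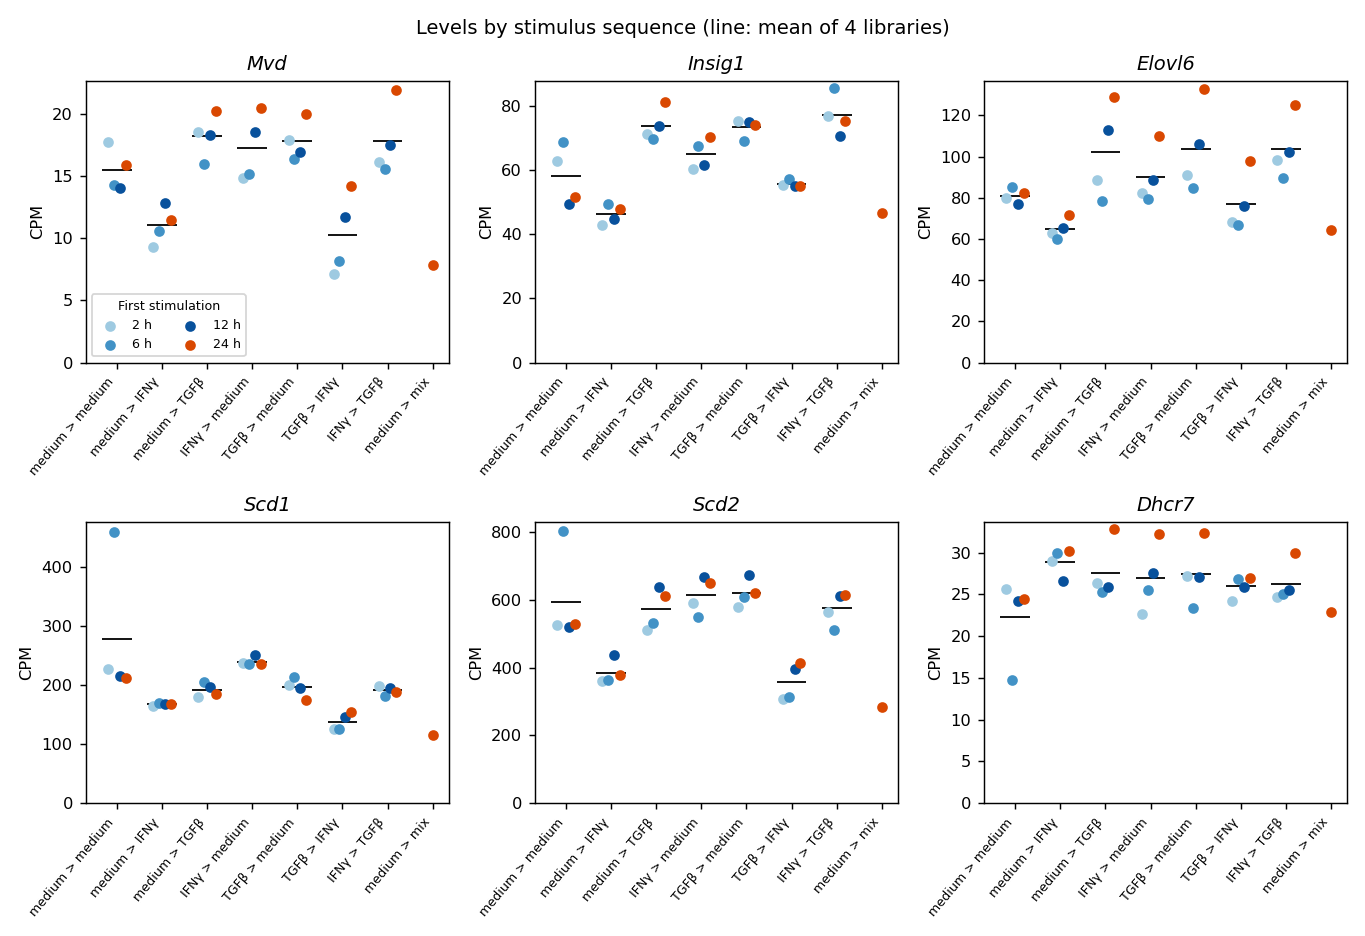
CPM of 6 genes in each library (points, coloured by duration of the first stimulus) by stimulus sequence, with a line at the mean of 4 libraries; each vertical axis starts at 0. Mvd, Insig1, Elovl6, Scd1 and Scd2 are lower in the sequences that end with IFNγ than in those that end with TGFβ, Dhcr7 is not, and the 6 h medium library is far from its companions for Scd1, Scd2 and Dhcr7.

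The second comparison put 24 h of TGFβ in the same place. Of the 33 genes 9 rose and 3 fell, where 11.7% of all tested genes rose and 11.6% fell (23.3% in all), and the median log2 fold change was 0.17 against 0.00 over all tested genes. The genes that rose were Acly, which makes cytosolic acetyl-CoA, Acaca, which makes malonyl-CoA, and Elovl6 of fatty acid synthesis, Acat2, Pmvk, Fdft1, Msmo1 and Dhcr7 of sterol synthesis, and Insig1. Srebf1, Scd1 and Insig2 fell.

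Acly was at 195, 159, 194 and 201 CPM in medium and at 241, 209, 251 and 293 CPM after TGFβ. All TGFβ libraries lay above all medium libraries, and the log2 fold change was 0.40 (SE 0.05, adjusted p = 7.12e-06). Acat2 was at 5.85, 4.04, 4.98 and 5.92 CPM in medium and at 7.72, 5.86, 7.53 and 9.47 CPM after TGFβ. Its ranges overlapped by the 6 h library alone, and the log2 fold change was 0.55 (SE 0.15, adjusted p = 0.00952). Insig1 was at 71, 69.5, 73.6 and 81 CPM after TGFβ, above every medium library (log2 fold change 0.35, SE 0.08, adjusted p = 0.00207). Elovl6, which elongates palmitate, was at 79.7, 85, 77.1 and 82.4 CPM in medium and at 88.8, 78.5, 113 and 129 CPM after TGFβ, with 12 and 24 h well above the rest (log2 fold change 0.31, SE 0.08, adjusted p = 0.00948). Pmvk, phosphomevalonate kinase, had 0.33 (adjusted p = 0.0373), and Dhcr7 0.30 (adjusted p = 0.0415). Srebf1 was at 79, 105, 69.6 and 73.9 CPM in medium and at 61.9, 65.7, 63.8 and 60.9 CPM after TGFβ, without overlap (log2 fold change -0.37, SE 0.08, adjusted p = 0.00187). Scd1 was at 179, 205, 197 and 184 CPM, all under medium (-0.52, SE 0.15, adjusted p = 0.0136). Fasn (0.32, adjusted p = 0.112), Srebf2 (0.12, adjusted p = 0.0671) and Scd2 (-0.06) were not called.

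This comparison leaned on single libraries and on the shared model. Without the 6 h medium library 10 genes were called, 7 of them among the 12, and Scd1 (-0.19, adjusted p = 0.0584), Pmvk, Dhcr7, Fdft1 and Insig2 lost their calls. Scd2 then turned from -0.06 to 0.16 (adjusted p = 0.0762), still not called. The count was 7 without medium then TGFβ at 2 h, without it at 24 h or without medium at 24 h, 5 with no replicate block (duration left out of the model), and 2 when only the 8 libraries compared were fitted.

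**Figure D3:**
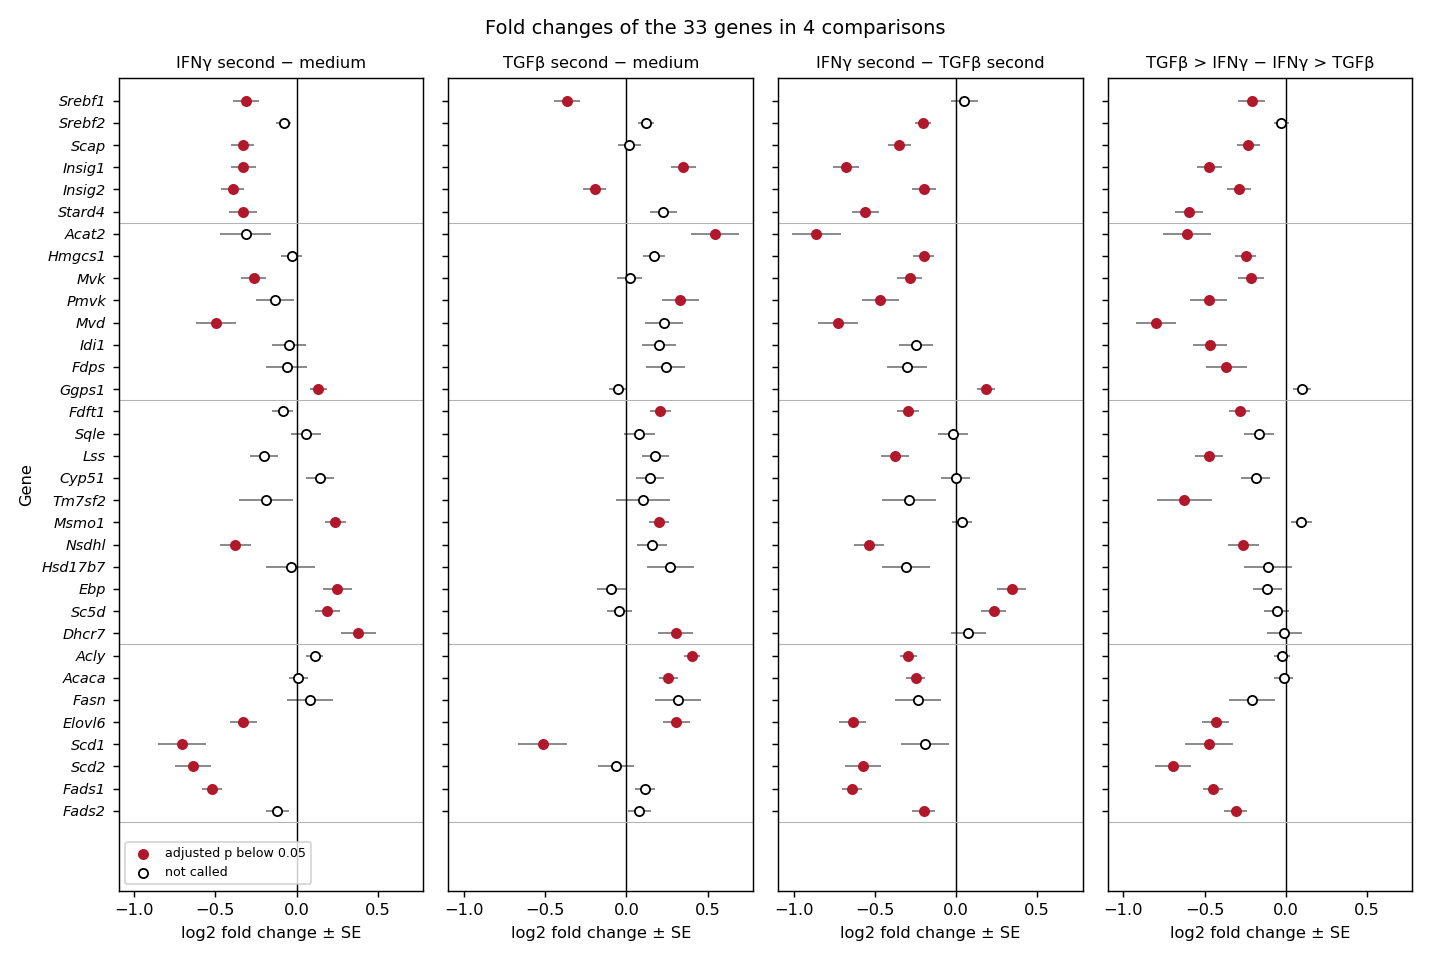
Log2 fold change with its standard error (horizontal axis) for each of the 33 genes (vertical axis, lines between the roles) in 4 comparisons. Red points passed an adjusted p of 0.05. Second IFNγ against medium has 12 red points on the left, second TGFβ against medium has 9 on the right, and the difference by order has 21, all on the left.

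Set against each other, the 2 second stimuli gave a wider difference. After IFNγ 19 of the 33 genes were lower than after TGFβ and 3 were higher, where 20.5% of all tested genes were lower and 21.1% higher (41.5% in all). The median log2 fold change was -0.28, and -0.01 over all tested genes. Neither group ended in medium, but the spread and the duration terms came from the fit of all 29 libraries. That fit included the 6 h medium library. The largest differences were at Acat2 (log2 fold change -0.86, SE 0.15, adjusted p = 7.56e-05), Mvd (-0.73, SE 0.12, adjusted p = 4.24e-05), Insig1 (-0.68, SE 0.08, adjusted p = 2.96e-07), Fads1 (-0.64, SE 0.06, adjusted p = 2.19e-08), Elovl6 (-0.64, SE 0.08, adjusted p = 1.84e-06) and Scd2 (-0.57, SE 0.11, adjusted p = 0.000208). For Acat2 the 4 IFNγ libraries were at 3.91, 3.64, 5.22 and 3.89 CPM, all below the 5.86 to 9.47 CPM of the TGFβ libraries. Mvd was at 18.5, 16, 18.3 and 20.2 CPM after TGFβ, all above the highest IFNγ library at 12.8 CPM. Elovl6 was at 62.9, 60.1, 65.3 and 71.7 CPM after IFNγ, all under its lowest TGFβ library at 78.5 CPM. The genes higher after IFNγ were Ebp (0.34, adjusted p = 0.0036), Sc5d (0.23, adjusted p = 0.0177) and Ggps1 (0.18, adjusted p = 0.00875). Srebf2 was lower after IFNγ (-0.20, adjusted p = 0.00143), while Srebf1 (0.05) and Fasn (-0.24) were not called.

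A first stimulus followed by 24 h of medium asked what was left after the wash. With IFNγ first, 0 of the 33 genes were called by edgeR, where 0.790% of all tested genes were. At an unadjusted p under 0.05 there were 8 of 33, where 15.8% of all tested genes were, and DESeq2 called 1. The median log2 fold change was 0.10. Scd1 was at 237, 235, 250 and 236 CPM, against 227, 459, 215 and 212 CPM in medium (log2 fold change -0.19, adjusted p = 0.569), and Insig1 at 60.1, 67.4, 61.5 and 70.1 CPM (0.16, adjusted p = 0.316). So both stood above their levels under 24 h of IFNγ. Without the 6 h medium library 0 genes were called, and the sign for Scd1 turned (0.13, adjusted p = 0.403). Without the 2 h medium library 2 genes were called.

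With TGFβ first and medium second, 11 of the 33 genes were higher than in medium and 2 lower, where 14.5% of all tested genes were higher and 14.5% lower (29.0% in all). The median log2 fold change was 0.14. Pmvk was at 8.32, 5.43, 7.15 and 8.03 CPM in medium and at 9.99, 9.78, 10.3 and 10.7 CPM after TGFβ and the wash. The groups did not overlap, and the log2 fold change was 0.50 (SE 0.11, adjusted p = 0.00197). Acly was at 247, 213, 269 and 289 CPM, above every medium library (log2 fold change 0.44, SE 0.05, adjusted p = 1.8e-06). Acat2 (0.45, adjusted p = 0.0247), Insig1 (0.34, adjusted p = 0.00191), Elovl6 (0.33, adjusted p = 0.00453) and Acaca (0.30, adjusted p = 0.000414) also rose. Hmgcs1 (0.22, adjusted p = 0.0138) and Srebf2 (0.17, adjusted p = 0.00887) rose by less. Srebf1 was at 69.1, 66.5, 61.2 and 53.6 CPM, all under medium (-0.38, SE 0.08, adjusted p = 0.000969), and Scd1 at 200, 214, 195 and 175 CPM, of which 1 reached into the medium range (-0.48, adjusted p = 0.0164). Leaving out the 6 h medium library ended the Scd1 call (-0.16, adjusted p = 0.11), and Scd2 was then called higher (0.28, adjusted p = 0.00213), where it was not called with it. Without that library 10 genes were called in all, without the 24 h medium library 8, with no replicate block 7, and 2 when only the 8 libraries were fitted. Of the 13 calls, 7 held in each of the 8 fits that left out 1 of the libraries compared. Acat2 lost its call in several of these fits, at an edgeR adjusted p up to 0.0796. The comparisons of medium with second TGFβ and with first TGFβ share the 4 medium libraries, so their likeness is not independent.

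When IFNγ came second, TGFβ given first made a small difference. Against medium then IFNγ, 3 of the 33 genes were higher and 3 lower, where 15.8% of all tested genes were called. Insig1 was at 55.3, 57, 54.8 and 54.9 CPM after TGFβ then IFNγ, against 42.9, 49.3, 44.8 and 47.8 CPM after medium then IFNγ. The groups did not overlap, and the log2 fold change was 0.27 (SE 0.08, adjusted p = 0.0222). Acaca (0.24, adjusted p = 0.00565) and Acly (0.22, adjusted p = 0.00468) were higher in 4 of 4 durations. Fdps, which makes farnesyl pyrophosphate, was at 9.86, 10.2, 13 and 15.6 CPM against 16.4, 14.6, 18.6 and 13.5 CPM, lower at 2, 6 and 12 h and not at 24 h (-0.38, SE 0.13, adjusted p = 0.0455). Srebf1 (-0.27, adjusted p = 0.0257) and Sc5d (-0.24, adjusted p = 0.0361) were the other genes called lower. Srebf2 (0.07), Fasn (0.14), Scd1 (-0.28, adjusted p = 0.215) and Scd2 (-0.11) were not called. The count of 6 was 2 with no replicate block, 2 without TGFβ then IFNγ at 12 h, and 3 without medium then IFNγ at 2 h or at 12 h. When TGFβ came second, IFNγ given first left 0 of 33 genes called by edgeR and 0 by DESeq2, where 0.0937% of all tested genes were called. At an unadjusted p under 0.05 there were 5 of 33, and 11.6% of all tested genes.

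The interaction of TGFβ first with IFNγ second asked whether the effect of first TGFβ differed with what followed. Here 0 of 33 genes were called by edgeR and 0 by DESeq2, where 0.395% of all tested genes were called. At an unadjusted p under 0.05 there were 10 of 33, and 12.9% of all tested genes. All 19 sterol enzymes had a negative sign, with a median of -0.24 on the log2 scale, where the median of all tested genes was 0.00. Without the 6 h medium library Ebp turned to 0.02. Sterol enzymes vary together, so their signs are not separate results and were not tested. The most negative was Pmvk (-0.55, SE 0.16, adjusted p = 0.14), which was at 5.74, 6.03, 5.47 and 8.14 CPM after TGFβ then IFNγ. Without the 6 h medium library Scd2 alone was called (-0.39, adjusted p = 0.0328), and without the 2 h medium library 2 genes were. For IFNγ first with TGFβ second 0 of 33 genes were called, as was 0% of all tested genes, and DESeq2 called 0. At an unadjusted p under 0.05 there were 7 of 33, and 7.22% of all tested genes. Without the 6 h medium library 0 were called. The sign was negative here too for 17 of 19 sterol enzymes, with a median of -0.19. Both interactions use the same libraries of medium throughout, so their likeness is not independent.

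The order of the cytokines was read from TGFβ then IFNγ against IFNγ then TGFβ, in which cells saw both agents. This comparison also swaps the cytokine present at the end and the time given to each. The first stimulus was shorter than the second except at its longest duration. An effect of order therefore cannot be told apart here from that of the last stimulus or of unequal exposure. Neither group holds a library of medium throughout, but the spread and the duration terms came from the fit of all 29 libraries. Of the 33 genes 21 were lower when IFNγ came last and 0 were higher, where 16.2% of all tested genes were lower and 16.4% higher (32.5% in all). The median log2 fold change was -0.26, and 0.00 over all tested genes. With medium in place of the first cytokine, second IFNγ against second TGFβ had 19 genes lower, 3 higher and a median of -0.28. The genes called were 5 of 6 regulators, 7 of 8 genes of the mevalonate and isoprenoid steps, 4 of 11 from squalene to cholesterol, and 5 of 8 of fatty acid synthesis.

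Mvd was at 7.15, 8.13, 11.7 and 14.2 CPM for 2, 6, 12 and 24 h of TGFβ before IFNγ, and at 16.1, 15.6, 17.5 and 21.9 CPM for IFNγ before TGFβ. The groups did not overlap, and the log2 fold change was -0.80 (SE 0.12, adjusted p = 3.65e-05). Scd2 was at 307, 312, 395 and 412 CPM against 564, 511, 612 and 615 CPM, also without overlap (-0.70, SE 0.11, adjusted p = 5.36e-05). Stard4 was at 19.4, 17.7, 26.7 and 27.7 CPM against 34.5, 32.5, 34.5 and 35.1 CPM, with the short first periods lowest (-0.60, SE 0.09, adjusted p = 1.54e-05). Tm7sf2, near the lower end of detection, was at 3.68, 3.2, 3.49 and 3.61 CPM against 5.25, 4.81, 6.03 and 5.54 CPM (-0.62, SE 0.17, adjusted p = 0.00604). Acat2 was at 3.74, 3.7, 4.4 and 8.37 CPM against 7.06, 6.66, 7.75 and 8.65 CPM (-0.61, SE 0.15, adjusted p = 0.00308). For Acat2 the 24 h library of TGFβ then IFNγ stood with the other sequence, so the groups overlapped. Pmvk (-0.48, SE 0.12, adjusted p = 0.0028) was at 9.34, 8.19, 8.22 and 9.42 CPM with IFNγ first, all above its 4 libraries with TGFβ first. Scd1 (-0.47, adjusted p = 0.0166), Insig1 (-0.47, adjusted p = 7.8e-05), Lss, the cyclase that forms lanosterol (-0.47, adjusted p = 0.000235), Idi1, the isopentenyl isomerase (-0.47, adjusted p = 0.00144), Fads1 (-0.45, adjusted p = 1.02e-05) and Elovl6 (-0.43, adjusted p = 0.00038) were lower too.

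Genes not called by order were Srebf2 (-0.03), Acly (-0.02), Acaca (-0.01), Fasn (-0.21, adjusted p = 0.281) and Ggps1 (0.10). Of the late sterol steps Sqle, Cyp51, Msmo1, Hsd17b7, Ebp, Sc5d and Dhcr7 were not called either. Of the 21 genes, 15 were called in each of the 8 fits that left out 1 of the libraries compared. The lost calls were at Srebf1, Scap, Mvk, Fdps, Nsdhl and Scd1. Over the 7 sequences, TGFβ then IFNγ had the lowest mean for 16 of the 33 genes and the highest for 0. Medium then IFNγ had the lowest for 8 and the highest for 5, and medium throughout the lowest for 6 and the highest for 2. Medium then TGFβ had the highest mean for 10 genes and TGFβ then medium for 9. This ranking was not made over all tested genes, so the counts cannot be called particular to these genes. The means for medium throughout include the 6 h library that stood apart. The ratio of highest to lowest mean was largest for Scd1 (2.02) and Acat2 (1.84), and smallest for Ggps1 (1.14), Cyp51 (1.17), Srebf2 (1.19) and Msmo1 (1.19).

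Only 1 library received the mix, with no replicate and no test. Against the 24 h library of medium then medium it was lower by more than 1.5-fold for 11 of the 33 genes, where 16.2% of all tested genes were, and higher by that fold for 0. Against the 24 h library of medium then IFNγ it was lower by more than 1.5-fold for 3 genes, where 8.27% of all tested genes were. Mvd was at 7.84 CPM in the mix, 15.9 CPM in medium, 11.5 CPM after IFNγ and 20.2 CPM after TGFβ. Stard4 was at 17.2 CPM in the mix, 33.3 CPM in medium, 27.4 CPM after IFNγ and 42.1 CPM after TGFβ. Scd2 was at 284 CPM in the mix, 529 CPM in medium, 377 CPM after IFNγ and 612 CPM after TGFβ. For these 3 genes the mix thus lay below either cytokine alone, but of them only Stard4 was lower than IFNγ by more than 1.5-fold. The other genes past that fold against IFNγ were Idi1 and Lss. Acly (232 CPM), Acaca (61.5 CPM) and Fasn (135 CPM) lay above their 24 h medium libraries and below TGFβ alone. The mix had the lowest of all 29 values for 9 of the 33 genes, where it did for 6.43% of all tested genes.

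Levels also differed between durations of the first stimulus. In the test of the 3 duration terms over all sequences 18 of the 33 genes were called, where 34.1% of all tested genes were: 12 of 19 sterol enzymes, 4 of 8 fatty acid genes and 2 of 6 regulators. Of the 18, 17 were higher at 24 h than at 2 h, and Srebf1 was lower (log2 -0.13, adjusted p = 0.0397). The median log2 difference from 2 h over the 33 genes was -0.06 at 6 h, 0.04 at 12 h and 0.16 at 24 h. The time since the first stimulus began rose with its duration, and the 2 cannot be told apart. In the sequences that began with medium, the duration was a period without cytokine. Duration is also the replicate number, so differences in culture or processing between durations cannot be told apart from it either.

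The largest differences between 24 and 2 h were at Idi1 (log2 0.42, adjusted p = 5.28e-05), Fasn (0.42, adjusted p = 0.00518), Elovl6 (0.38, adjusted p = 4.39e-05), Sqle, the squalene epoxidase (0.35, adjusted p = 0.00089), Mvd (0.31, adjusted p = 0.0096), Acat2 (0.30, adjusted p = 0.00482) and Cyp51, the lanosterol demethylase (0.28, adjusted p = 0.000291). Idi1 was at 23.3, 18, 25.4 and 32.1 CPM for medium then TGFβ and at 18.6, 21.4, 23.2 and 30.9 CPM for IFNγ then medium, highest at 24 h in both. In medium throughout, Idi1 was at 21.8, 19.1, 22.2 and 21.2 CPM, with no such step. Fasn was at 107, 99.8, 160 and 201 CPM for medium then TGFβ, at 115, 116, 126 and 180 CPM for IFNγ then medium, and at 106, 117, 111 and 106 CPM for medium throughout.

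**Figure D4:**
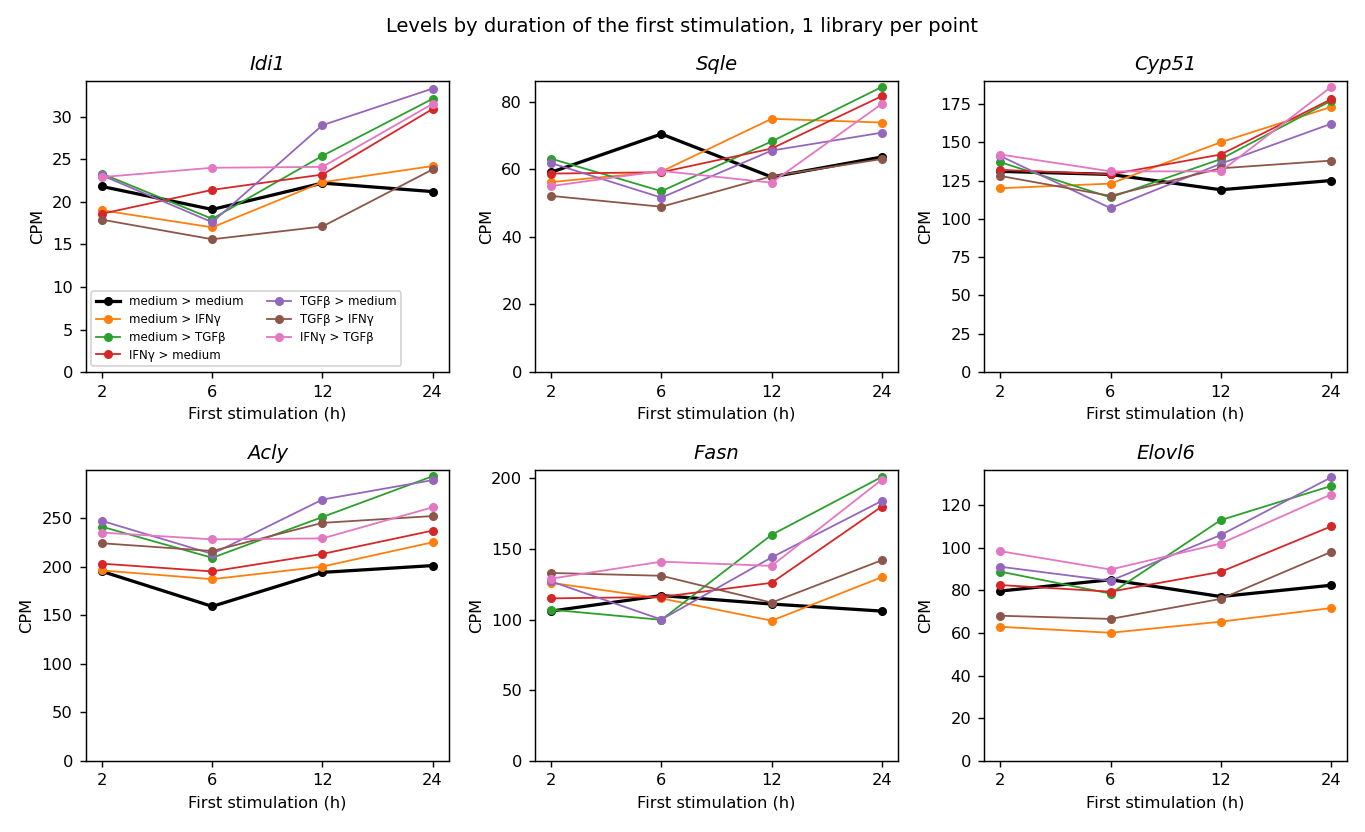
CPM of 6 genes (vertical axes from 0) against the duration of the first stimulus (horizontal axis, h, evenly spaced steps), with 1 library per point and 1 line per stimulus sequence. The lines of IFNγ then medium, of either sequence that ends in TGFβ, and of TGFβ then medium climb between 12 and 24 h for Fasn, Elovl6 and Cyp51, and the black line of medium throughout stays nearly level for these 3 genes. For Fasn and Elovl6 the lines of both sequences that end in IFNγ climb there too.

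Counted by gene, the 24 h library was the highest of its 4 for 27 of 33 genes in IFNγ then medium, where 28.6% of all tested genes had that pattern. The count was 25 in medium then TGFβ (25.7% of all tested genes), 25 in IFNγ then TGFβ (27.0%), 21 in TGFβ then medium (28.3%), 21 in TGFβ then IFNγ (27.1%), and 17 in medium then IFNγ (27.6%). In medium throughout it was 4 of 33 (23.9%). These counts are descriptions, and the 7 patterns were not tested against each other. When a slope on log2 duration was fitted within each sequence, only Mvd in TGFβ then IFNγ was called among the 33 genes, at 0.29 per doubling of the duration (SE 0.06, adjusted p = 0.0475), where 0.208% of the genes tested there were called. That is the gene and sequence in which CPM went from 7.15 at 2 h to 14.2 at 24 h.

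Within the set, levels went together to a limited degree. Over the 29 libraries the median Pearson correlation of log2 CPM was 0.445 between sterol enzymes, 0.502 between fatty acid genes and 0.395 between the 2 groups. After group and duration means were taken out these were 0.201, 0.296 and 0.169 over 28 libraries. Each gene was set against the mean of the standardised sterol enzymes, with a sterol enzyme left out of its own mean. Idi1 (0.904), Fdft1, the squalene synthase (0.89), and Hmgcs1 (0.886) correlated most. Ggps1 (-0.592) and Ebp (-0.023) did not follow that mean. Among regulators Stard4 had 0.846, Insig1 0.556, Srebf2 0.493 and Srebf1 0.037. Outside the 33 genes, Ntn4 (0.906), Ncbp2 (0.828), Arhgap22 (0.827) and Lrig1 (0.825) were among the 5 most like that mean over 29 libraries. The libraries share their sequence groups and durations, so these values carry no test.

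Neighbouring lipid pathways were read from lists of other genes, to be set against the 21.2% of all tested genes that fell and 22.7% that rose with second IFNγ. In that comparison 10 of 15 genes of fatty acid oxidation fell and 2 rose, with a median log2 fold change of -0.41. Cpt1a, which commits fatty acids to mitochondria, had -0.78 (adjusted p = 0.000235), and the carnitine carrier Slc25a20 had -0.73 (adjusted p = 2.63e-06). Of 12 genes of triglyceride synthesis and lipid droplets 5 fell and 2 rose, led by the acyltransferases Dgat2 (-0.83) and Dgat1 (-0.81). Of 11 genes of the sterol sensor LXR and of cholesterol export or modification 4 fell and 3 rose. Abca1, the cholesterol exporter, had a mean of 13.8 ± 13.3 CPM (SD, n = 4) in medium and 3.26 ± 1.72 CPM after IFNγ (adjusted p = 4.49e-05), and its medium range of 5.98 to 33.7 CPM was wide. Ch25h, which makes the sterol regulator 25-hydroxycholesterol, was at 0.536 ± 0.416 CPM in medium and at 1.78 ± 0.789 CPM after IFNγ (log2 fold change 1.72, adjusted p = 0.016), low in both. Of 19 other sterol and SREBP pathway genes 5 rose and 3 fell, with Pdss1, of ubiquinone synthesis, at 1.17 and Acat1, the mitochondrial thiolase, at -0.55. Of 19 other fatty acid genes 6 rose and 6 fell, with Acsl3, an acyl-CoA synthetase, at -1.02 and Mlxipl at 3.18 from 0.0499 ± 0.0405 CPM in medium, a level at which the fold is uncertain. Of 12 genes of lipid uptake and trafficking 1 rose and 3 fell, with the receptor Lrp1 at -0.79 and the lysosomal lipase Lipa at -0.58.

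With second TGFβ, where 11.6% of all tested genes fell and 11.7% rose, 4 of 15 fatty acid oxidation genes fell and 1 rose, with Ppargc1a at -1.20 and Cpt1a at -1.02. Of the LXR list 5 of 11 fell and 1 rose, with Cyp27a1 at -1.60 and Abca1 at -1.45. Of the other sterol genes 2 of 19 rose and 0 fell, with Tmem97 at 0.30. Of the other fatty acid genes 4 of 19 fell, led by Acacb (-0.97), the mitochondrial acetyl-CoA carboxylase, and Hacd1 (-0.38). Of the triglyceride list 4 of 12 fell and 1 rose, with Lipe at -0.94 and Dgat1 at -0.68. Of the uptake list 2 of 12 rose and 3 fell, with Fabp5 at 0.87 and Npc2 at -0.82.

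By order, with IFNγ last against TGFβ last, 16.2% of all tested genes were lower and 16.4% higher. Here 8 of 15 fatty acid oxidation genes were lower and 2 higher, with Ppargc1a at -1.38 and Cpt1a at -0.92. The LXR list had 4 of 11 lower and 2 higher. Ch25h was at 1.67 ± 0.697 CPM with IFNγ last and at 0.0938 ± 0.0995 CPM with TGFβ last, the latter range including 0, and Abca1 had -1.70 (adjusted p = 0.000826). The triglyceride list had 3 of 12 lower and 3 higher, with Dgat2 at -0.88 and Lpin1 at -0.70. The other sterol genes had 3 of 19 lower and 2 higher, with Pdss1 at 0.59. Other fatty acid genes had 5 of 19 lower and 3 higher, with Acsl3 at -0.78 and Acsl1 at 0.75, and the uptake list 3 of 12 lower and 0 higher, with Lrp1 at -0.58 and Npc1 at -0.32.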

How the data were processed

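Whole-number read counts for each Ensembl gene in 29 libraries were deposited by the authors as a single table, without normalisation. The submitters' processing notes name HISAT, with no version, and the build GRCm38. Annotation release, counting tool and strand setting: these are not stated in the sources used here. Per the labels' protocols the mRNA kit was stranded and RNA integrity was over 8. Every column matched 1 sample by name, leaving 0 over.

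Tests used edgeR 4.0.16 in R 4.3.3. Genes were kept by filterByExpr (minimum count 10), which left 14935 of 28229, and TMM gave the scaling. All 29 libraries entered 1 quasi-likelihood fit (glmQLFit, glmQLFTest) with sequence and duration as factors, leaving 18 residual degrees of freedom. From it came 8 comparisons, 2 interactions and the duration test. A second fit gave 7 slopes on log2 duration. Adjustment was by Benjamini-Hochberg across every tested gene, with calls below 0.05. SE is the log2 fold change over the root of F. CPM refer to TMM-scaled totals, and the prior count behind log2 CPM was 2. The steps were tested on simulated data.

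The labels' replicate number is the duration, so the duration factor is also the replicate block. No 2 libraries of a sequence came within sampling noise of each other (lowest chi-square per degree of freedom 3.77 over 42 pairs). The 33 genes, the lists and the rule for named genes were chosen with earlier results of these data known. The rule gave full values to at most 6 called genes with the largest changes per direction, and to Srebf1, Srebf2, Insig1, Fasn and Scd1 or Scd2. From each list it named the 2 called genes with the largest change. Where the text names fewer, the other is not reported here. Alternatives were DESeq2 1.42.0, RLE scaling, no filter, no replicate block, only the groups compared, and leaving out libraries or durations.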

Additional observations from a re-analysis of the deposited data

Results flagged for a closer look

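In each of 231 sets of 4 libraries (33 genes in 7 sequences) the highest or lowest CPM was checked against its companions, and 18 (7.79%) stood farther off than Dixon's 95% limit, where chance alone flags about 1 in 20. Of these, 4 came from the 6 h library of medium throughout. In it Scd1 was at 459 CPM, Scd2 at 804 CPM, Acly at 159 CPM and Dhcr7 at 14.8 CPM. This library enters every comparison with medium throughout.

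Another 7 were the highest of their 4 at 24 h. They were Acat2 at 8.37 CPM in TGFβ then IFNγ, Fasn at 180.0 CPM in IFNγ then medium, and Nsdhl and Dhcr7, both at 32.8 CPM, in medium then TGFβ. In IFNγ then TGFβ they were Dhcr7 at 30.0 CPM, Fads2 at 160.0 CPM and Idi1 at 31.5 CPM.

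The other 7 were scattered. Acat2 was highest at 12 h (5.22 CPM) and Sc5d lowest at 6 h (32.6 CPM) in medium then IFNγ. In IFNγ then medium, Srebf1 was highest at 2 h (82.8 CPM), Ggps1 lowest at 2 h (46.7 CPM) and Scd1 highest at 12 h (250.0 CPM). Fdft1 was lowest at 6 h (103 CPM) in TGFβ then medium, and Hmgcs1 highest at 2 h (166 CPM) in medium throughout.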

How the results depend on the processing

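The counts of genes called for second IFNγ against medium (17 of 33), second IFNγ against second TGFβ (22) and the order of the cytokines (21) stayed within 1.5 times under DESeq2, RLE scaling, no filter, no replicate block, only the groups compared and each left-out library or duration. With these left out they ran from 13 to 17, from 17 to 25 and from 14 to 20. The count for duration (18) was the same under DESeq2, RLE scaling and no filter. With no replicate block (duration left out) 13, 18 and 16 were called in the first 3. The counts that rest on TGFβ against medium did not hold, and the cause was not tested. Second TGFβ against medium (12) gave 7 with no filter on low counts, 5 with no replicate block, 2 when only the groups compared were fitted with the replicate block, and 4 to 14 when libraries or durations were left out. First TGFβ then medium (13) gave 7 with no replicate block, 2 with only the groups compared, and 7 to 16 with libraries left out. TGFβ before IFNγ (6) gave 2 with no replicate block and 0 to 7 with libraries left out. First IFNγ then medium (0) gave 1 with DESeq2 and 0 to 2 with libraries left out, and the interaction of TGFβ first with IFNγ second (0) gave 0 to 2. Among the genes picked by the rule for full values, no called value changed sign. Deviations of libraries of the same duration from their sequence means correlated by -0.0409 to 0.359, so the duration number does not pair them in every comparison. Each sequence has 1 library per duration, so differences in time course between sequences cannot be separated from the spread of single libraries.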
